A study of Mus musculus with 52 samples.

Results

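The amygdala and the hippocampus of 30-day-old mice were compared by poly-A RNA sequencing of dissected tissue, taking the region difference and not the effect of the gene knockout. The libraries were all 8 amygdala and all 8 hippocampus samples of postnatal day 30 (P30), 16 of the 52 samples of the series. In each region 4 libraries came from mice lacking miR-146a (labelled miR-146a KO) and 4 from wild-type mice (WT), and genotype entered the main fits as a covariate. The amygdala and hippocampus samples of postnatal day 60 (P60), 12 libraries from other animals (7 amygdala with 4 KO and 3 WT, 5 hippocampus with 2 KO and 3 WT), were fitted separately as a check. The labels give no strain, sex, Cre driver or dissection borders. Mice of 1 genotype were born to different mothers, per the design text, and nothing else is said of the replicates, so p-values measure the spread between these samples. A protocol for culturing human cells among the labels was left aside, as were the ages and areas in the design text that differ from the sample labels.

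The hippocampus is an allocortical structure built from dentate gyrus granule cells and the pyramidal cells of the CA fields, linked in a largely one-way excitatory circuit that serves spatial and episodic memory. The dentate gyrus keeps producing neurons after birth. The amygdala is a cluster of nuclei of mixed origin: the basolateral and cortical nuclei are pallial and rich in glutamatergic neurons, whereas the central and medial nuclei are largely subpallial and rich in GABAergic, peptide-releasing neurons. It is known for fear learning and social behaviour. Neuropeptides are cut from precursor proteins, stored in dense-core vesicles and act on G protein-coupled receptors, and several of their genes are textbook targets of CREB, a transcription factor that binds the cyclic AMP response element (CRE).

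In the 16 libraries the deposited values gave back 2933026 to 8141105 reads per library, and values are normalised CPM (reads scaled by library) throughout. The Mir146 gene was listed at 0 in all 8 amygdala libraries and at no more than 0.150 in the hippocampus, so the poly-A values check no genotype label. Libraries of 1 region correlated with each other at a mean r of 0.962 to 0.986 across genes on the log2 scale. The lowest means were those of WT hippocampus 3 (0.962) and WT amygdala 3 (0.971). WT hippocampus 3 had a summed choroid plexus marker value of 6166 against 54.7 to 1294 in the other P30 hippocampus libraries, and the lowest excitatory neuron sum, 5680.2 against 8812 to 9806. WT amygdala 3 had a summed striatal marker value of 1089 against 496 to 784 in the other amygdala libraries, and a myelin sum of 7207 against 1513 to 2791. At P60, hippocampus number 1 of both genotypes stood apart. The striatal sums there were 2182 (KO) and 3540.4 (WT), against 471 to 503 in the other P60 hippocampus libraries, and the dentate sums were 773 and 769.7 against 1290.1 to 2016. Genes described here whose P60 call changes without both libraries are given with the P60 comparison. In bulk tissue, more cells of a type and more RNA per cell cannot be told apart.

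**Figure D1:**
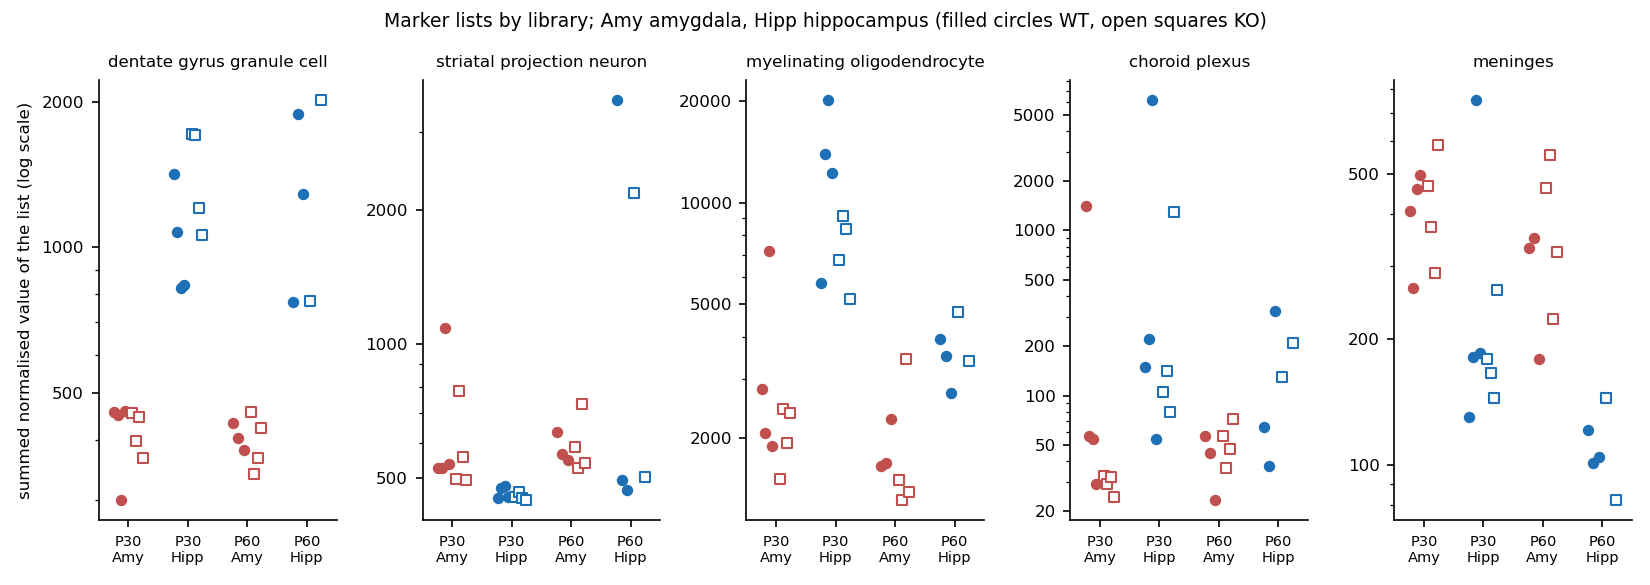
Summed normalised values of 5 marker lists (log vertical axis) in each amygdala and hippocampus library at P30 and P60, with WT as filled circles and KO as open squares. Dentate sums of the regions did not overlap at either age, WT hippocampus 3 stood highest in choroid plexus and meninges at P30, and 2 P60 hippocampus libraries stood highest in the striatal panel.

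The regions differed in many genes. Of 18406 genes tested at P30, 41.4% were called (limma, Benjamini-Hochberg adjusted p below 0.05): 5005 higher in the amygdala, which is 27.2%, and 2617 higher in the hippocampus, which is 14.2%. With voom on recovered reads, which changes both the scaling (a trimmed mean) and the model, the split was 3641 and 3871, with the median of all genes at -0.01 on the log2 scale in place of 0.07. Plain CPM in the same limma fit gave 4985 and 2608. Calls of at least 2-fold on the log2(value + 1) scale numbered 800 higher in the amygdala (4.35%) and 422 higher in the hippocampus (2.29%). All 8 libraries of a region lay above all 8 of the other for 1549 genes higher in the amygdala (8.42%) and 655 higher in the hippocampus (3.56%).

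The peptide genes give a first view of the amygdala side. Of 17 neuropeptide precursor genes tested, 11 were higher in the amygdala and 1 in the hippocampus, with a median log2 difference of 1.28 against 0.07 over all genes. The upstream stretches of 4 of the 11 are shown because these genes were higher together and the CRE is a known element of such genes. Each is the 250 bases before the annotated start (RefSeq, GRCm38.p6), 5′ to 3′ on the gene's strand. Capitals mark the palindromic CRE letters TGACGTCA in Sst and Cartpt, and in Vip and Trh the half-site TGACG or its reverse complement CGTCA.
Sst (chr16:23890845-23891094, minus strand): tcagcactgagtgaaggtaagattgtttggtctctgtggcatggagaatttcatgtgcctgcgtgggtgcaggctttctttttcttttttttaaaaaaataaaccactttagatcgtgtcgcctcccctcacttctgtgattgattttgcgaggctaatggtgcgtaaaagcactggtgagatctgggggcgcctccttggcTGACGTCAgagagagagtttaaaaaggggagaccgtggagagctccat
Cartpt (chr13:99900684-99900933, minus strand): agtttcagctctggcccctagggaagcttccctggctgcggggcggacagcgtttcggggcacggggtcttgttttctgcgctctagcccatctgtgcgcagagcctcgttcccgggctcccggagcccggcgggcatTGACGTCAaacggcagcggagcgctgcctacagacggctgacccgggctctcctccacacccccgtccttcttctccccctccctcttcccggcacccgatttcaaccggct
Vip (chr10:5638968-5639217, plus strand): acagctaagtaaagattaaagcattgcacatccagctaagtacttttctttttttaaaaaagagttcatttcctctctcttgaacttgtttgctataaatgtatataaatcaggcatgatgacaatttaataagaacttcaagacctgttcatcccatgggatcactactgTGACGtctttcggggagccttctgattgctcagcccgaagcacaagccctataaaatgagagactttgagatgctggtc
Trh (chr6:92244651-92244900, minus strand): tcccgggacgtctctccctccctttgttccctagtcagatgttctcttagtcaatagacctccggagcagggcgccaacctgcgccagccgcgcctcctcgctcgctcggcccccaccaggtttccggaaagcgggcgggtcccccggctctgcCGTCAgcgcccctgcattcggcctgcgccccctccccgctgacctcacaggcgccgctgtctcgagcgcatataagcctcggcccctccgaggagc
The CRE begins 48 bases before the start in Sst and 112 bases before it in Cartpt, and the half-site begins 79 bases before it in Vip and 96 in Trh. Both strands were searched, and the half-site letters lie inside the full motif. Of the 11 higher genes 9 had a window in the RefSeq table: 2 held the full motif and 8 the full motif or a half-site. Of all 32851 windows of that length, 1.55% held the full motif and 17.8% at least a half-site. Among the 11410 tested genes with a window the shares were 2.96% and 29.3%, and among all genes called higher in the amygdala 3.04% and 29.0%. A match is a description of letters and not of binding.

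Trh, which encodes thyrotropin-releasing hormone, had values of 1.03, 31.3 and 57.0 (lowest, median and highest of 8) in the amygdala and 0, 0.0650 and 0.300 in the hippocampus. The regions did not overlap, and the lowest amygdala value, from WT amygdala 3, was followed by 2.38 (Trh log2 difference, amygdala minus hippocampus here and below, 4.15 ± 0.66 SE, limma adjusted p = 0.00014). Under voom Trh was not called. The receptor gene Trhr had 2.41, 51.4 and 76.3 in the amygdala and 0.400, 0.925 and 2.14 in the hippocampus (4.11 ± 0.53, limma adjusted p = 2e-05). Again the lowest amygdala value was WT amygdala 3, against 16.8 to 76.3 in the others, and without it the log2 difference was 4.60. Ligand and receptor were both low in every hippocampus library and varied between amygdala libraries. Trh and Baiap3, a vesicle priming protein gene (14.8, 33.0 and 69.3 against 0, 1.10 and 11.1), also stand in the hypothalamus marker list. The defining hypothalamic genes Hcrt, Pmch and Oxt stayed at or below 0.420 in every amygdala library, and Avp reached 3.80 in 1. Of the 12 hypothalamus markers 3 were tested and 2 were called, both higher in the amygdala, and the summed values of the list were 24.1 to 139 there against 2.88 to 19.4. Their part in the Trh difference was not tested.

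Adcyap1, the gene of the peptide PACAP, had 6.73, 11.4 and 20.2 in the amygdala against 0.590, 1.41 and 3.70 in the hippocampus (log2 difference 2.23 ± 0.23, limma adjusted p = 6.3e-07). Tac1, which encodes substance P, had 9.16, 18.8 and 28.2 against 1.99, 2.87 and 4.29 (2.19 ± 0.18, limma adjusted p = 2.2e-08). Penk, the enkephalin precursor, had 36.6, 82.0 and 133 against 13.6, 18.1 and 24.6. Cartpt, the precursor of the CART peptides, had 2.39, 4.30 and 8.45 against 0, 0.330 and 1.28. None of these 4 overlapped between the regions. Vip, a marker of a class of interneurons, was also separate at 16.7, 20.7 and 25.6 against 1.71, 5.21 and 8.02. Sst, the somatostatin gene, overlapped, with 91.4, 194 and 223 against 50.8, 83.7 and 125 (1.14 ± 0.23, limma adjusted p = 0.001), and in WT mice alone the adjusted p was 0.15. Tac2, which encodes neurokinin B, and Nts, the neurotensin gene, were higher in the amygdala by 1.34 ± 0.19 and 1.57 ± 0.31. Crh, the corticotropin-releasing hormone gene, was low in both regions, at 1.08, 2.15 and 3.96 against 0, 0.495 and 1.43 (0.97 ± 0.20). Pdyn, the dynorphin precursor, went the other way by -1.03 ± 0.34 (limma adjusted p = 0.023), with 0.410, 3.64 and 6.39 in the amygdala and 4.31, 6.93 and 10.5 in the hippocampus. The calls of Sst, Nts and Pdyn were not made in WT mice alone.

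Receptors of peptides followed on the same side. Of 30 tested, 18 were higher in the amygdala and 5 in the hippocampus (median log2 difference 0.52). Ntsr1, the high-affinity neurotensin receptor, had 9.12, 21.8 and 25.3 in the amygdala against 1.33, 2.88 and 3.58 in the hippocampus. Tacr1, the substance P receptor, had 6.43, 17.2 and 23.8 against 1.37, 2.29 and 3.19, and Cckbr, the brain cholecystokinin receptor, 41.1, 46.0 and 62.5 against 7.39, 8.86 and 14.8. In all 3 the lowest amygdala library lay above the highest hippocampus library, with log2 differences of 2.45, 2.33 and 2.23. The opioid receptor genes Oprk1 (kappa) and Oprm1 (mu) were higher in the amygdala by 2.01 ± 0.25 and 1.6 ± 0.17, and Tacr3, the neurokinin B receptor, and Sstr1, a somatostatin receptor, by 2.29 ± 0.33 and 1.89 ± 0.22. Oxtr, the oxytocin receptor, had 12.7, 31.2 and 38.1 against 4.44, 6.51 and 16.2, with a slight overlap (1.78 ± 0.28, limma adjusted p = 0.0001). Npy2r, a neuropeptide Y receptor, was higher in the hippocampus (-1.0 ± 0.29, limma adjusted p = 0.013). The other 4 on that side were smaller: Mc4r, a melanocortin receptor (-0.77 ± 0.17), Sstr4 (-0.68 ± 0.23), Npy5r (-0.64 ± 0.13) and Ntsr2 (-0.26 ± 0.08). Without KO amygdala 2, WT amygdala 3, WT hippocampus 2 or WT hippocampus 4 the Sstr4 log2 difference was -0.61, -0.59, -0.61 or -0.59 and was not called.

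**Figure D2:**
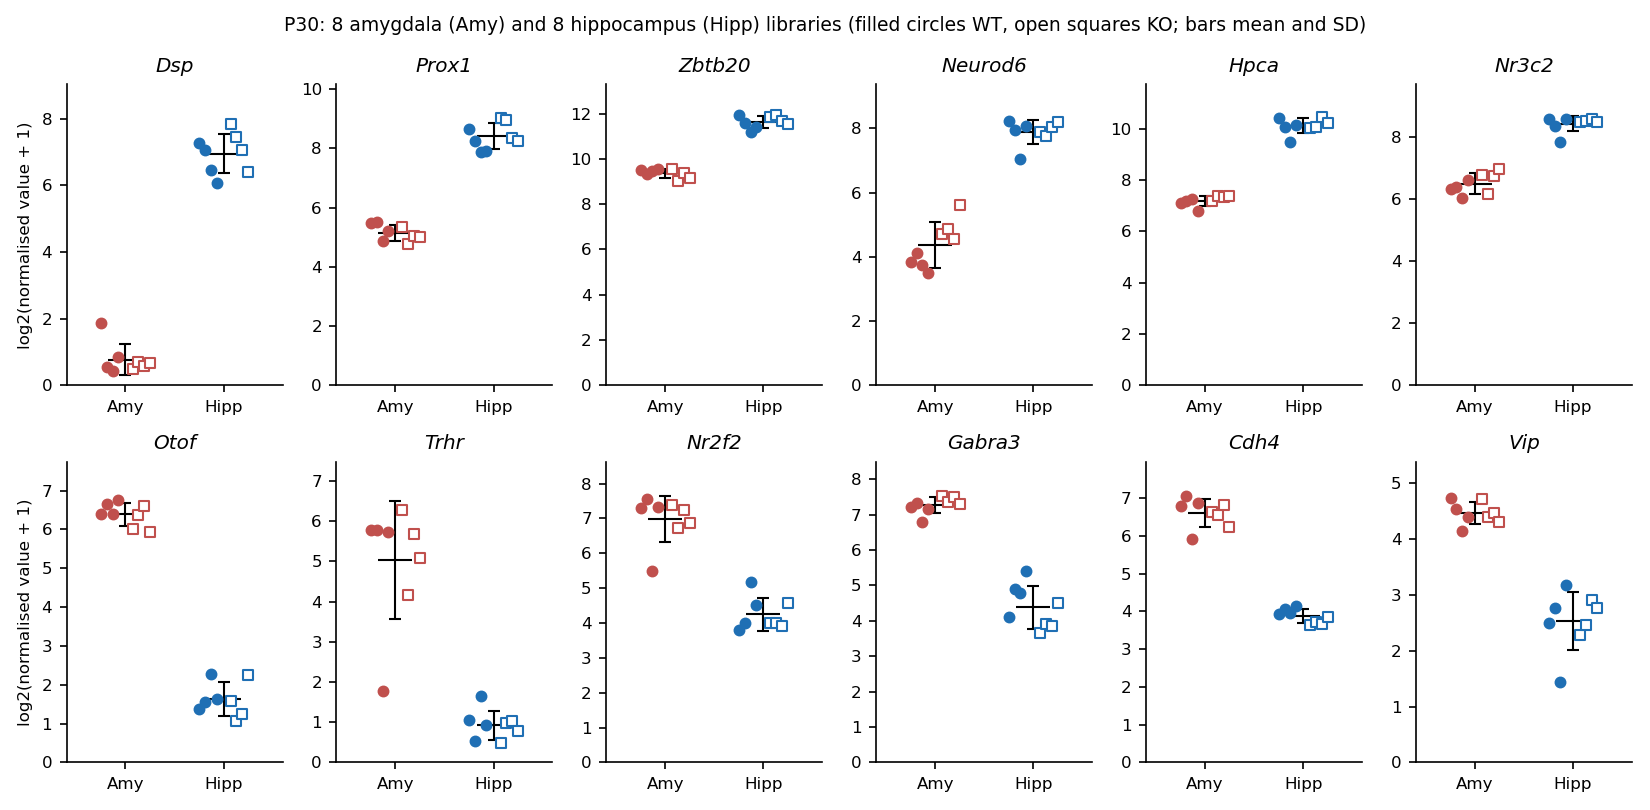
Values of 12 genes in the 16 P30 libraries as log2(normalised value + 1), WT as filled circles and KO as open squares, with the mean and SD of each region. The regions do not overlap in any of the 12 genes, and the low Trhr and Nr2f2 points of the amygdala are both WT amygdala 3.

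On the hippocampal side the dentate gyrus gave the largest differences. Of 12 granule cell markers tested, 10 were higher in the hippocampus and 1 in the amygdala, with a median log2 difference of -2.30. Dsp, the desmosome protein desmoplakin and a granule cell marker, had 0.340, 0.550 and 2.67 in the amygdala and 66.0, 132 and 226 in the hippocampus (log2 difference -6.18 ± 0.25, limma adjusted p = 6.5e-11). Lct, the lactase gene, had 0.900, 1.65 and 2.63 against 36.3, 86.8 and 114. Prox1, a transcription factor that sets and keeps granule cell identity, had 26.5, 34.0 and 44.4 against 236, 313 and 519 (-3.25 ± 0.17, limma adjusted p = 9e-10). C1ql2, a secreted protein of mossy fibre synapses, and Il16, a cytokine precursor, were higher by -2.63 and -3.31 on the same amygdala minus hippocampus scale. The exception was Plk5, a polo-like kinase, at 7.63, 13.5 and 21.3 against 4.9, 7.26 and 12.6, which overlapped (0.68 ± 0.21, limma adjusted p = 0.015) and was not called in KO mice alone or under voom.

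The CA fields divided. Of 12 CA2 and CA3 markers, 9 were higher in the hippocampus and none in the amygdala (median -1.12). Iyd, an iodotyrosine deiodinase, had 0.160, 0.450 and 1.08 in the amygdala against 10.7, 15 and 16.8 in the hippocampus, and Grik4, a kainate receptor subunit of CA3, 10.3, 21.2 and 25.3 against 59.2, 82.1 and 127. Bok, a BCL2 family member, and Amigo2, an adhesion protein of CA2 and CA3, differed by -2.07 ± 0.21 and -1.29 ± 0.25. Of 9 CA1 markers only 2 were higher in the hippocampus and 2 in the amygdala, shares not far from the 14.2% and 27.2% over all genes. Summed values of the CA1 list overlapped, at 307 to 961 in the amygdala (highest in KO amygdala 4) and 311 to 803 in the hippocampus. Whether amygdala libraries held hippocampal tissue was not tested. Pou3f1, a POU-domain transcription factor, was higher in the hippocampus (-2.11 ± 0.35), and so was Man1a, a mannosidase of the Golgi (-1.08 ± 0.15). Wfs1, the wolframin gene, had 64.6, 92.8 and 111 against 38.7, 89.4 and 159.9 and was not called. Fibcd1 ran from 3.51 to 86.6 in the amygdala and from 11.5 to 112 in the hippocampus and was not called either (-1.47 ± 0.64, limma adjusted p = 0.081). It was called without KO amygdala 4 (-1.78), in WT mice alone and with the frontal cortex libraries in the fit. Nov, a secreted matricellular protein, and Dcn, the proteoglycan decorin, were higher in the amygdala by 2.96 ± 0.49 and 1.97 ± 0.60. Dcn is also on the meninges list, of which 8 of 12 were higher in the amygdala (summed values 265 to 586 against 130.0 to 752 in the hippocampus, where WT hippocampus 3 was the highest); the part of meninges in these differences was not tested.

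Transcription factor lists were called in opposite directions. Of 12 hippocampal and pallial factors 8 were higher in the hippocampus and none in the amygdala (median -0.77). Zbtb20, required for the CA and dentate fields, had 517, 678 and 752 in the amygdala against 2358, 3179 and 3911 in the hippocampus (-2.27 ± 0.11, limma adjusted p = 2.7e-11). Neurod6, a proneural-type factor of pyramidal neurons, had 10.3, 19.4 and 48.5 against 132, 255 and 298, and its relative Neurod2 differed by -1.38 ± 0.10. None of the 3 overlapped between regions. Of 13 subpallial and amygdalar factors 8 were higher in the amygdala and none in the hippocampus (median 0.84). Summed values of this list were 364 to 446 in the amygdala, 172 to 505 in the hippocampus and 309 to 459 in the P30 frontal cortex. Meis2, a homeodomain factor of subpallial neurons, had 113, 144 and 162 against 26.4, 40.4 and 98.5 (1.67 ± 0.20), and Tshz1, a zinc finger factor of amygdalar intercalated cells, differed by 1.12 ± 0.09. Pbx3, a partner of such homeodomain factors, and Lhx6, a factor of medial ganglionic eminence interneurons, differed by 1.58 ± 0.29 and 0.84 ± 0.19. Foxp2, a forkhead factor, was higher in the amygdala with overlap (1.65 ± 0.45, limma adjusted p = 0.0082), but not called in WT or KO mice alone. Zic1 was not called, and WT hippocampus 3 held its highest value, 193, and the highest sum of this list, 505 against 172 to 225 in the other hippocampus libraries. Without WT number 3 in both regions 11 of the 13 were higher in the amygdala.

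Amygdala marker lists gave more mixed results than their names. Of 10 basolateral and cortical markers, 6 were higher in the amygdala and 1 in the hippocampus (median 1.05). Nr2f2, the nuclear receptor COUP-TFII, had 43.7, 154 and 187 in the amygdala against 13.0, 15 and 35.3 in the hippocampus (2.73 ± 0.29, limma adjusted p = 2.6e-06). Lypd1, a modulator of nicotinic receptors, had 54.9, 191 and 269 against 25.0, 31.4 and 35.3. Sema5a, an axon guidance protein, was the hippocampal exception at 97.2, 129 and 192 against 383, 553 and 755. Of 11 central and medial markers, 7 were higher in the amygdala and 3 in the hippocampus (median 1.14). Esr1, the estrogen receptor alpha gene, had 4.65, 35.1 and 48.3 against 1.37, 2.54 and 3.12 (2.87 ± 0.41, limma adjusted p = 4.4e-05), with WT amygdala 3 the lowest amygdala library and the next at 9.87. Prkcd, the protein kinase C delta that marks a class of central amygdala neurons, was higher in the hippocampus, with 7.23, 9.46 and 18.9 against 30, 49.6 and 93.0 (-2.18 ± 0.21, limma adjusted p = 4e-07). Ezr, the membrane linker ezrin (-0.63 ± 0.14), and Pappa, a protease of insulin-like growth factor signalling (-0.49 ± 0.13), were also higher in the hippocampus. The lists that define the labelled amygdala were thus not uniformly higher there. Cyp19a1 and Isl1 did not pass the filter on low values.

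**Figure D3:**
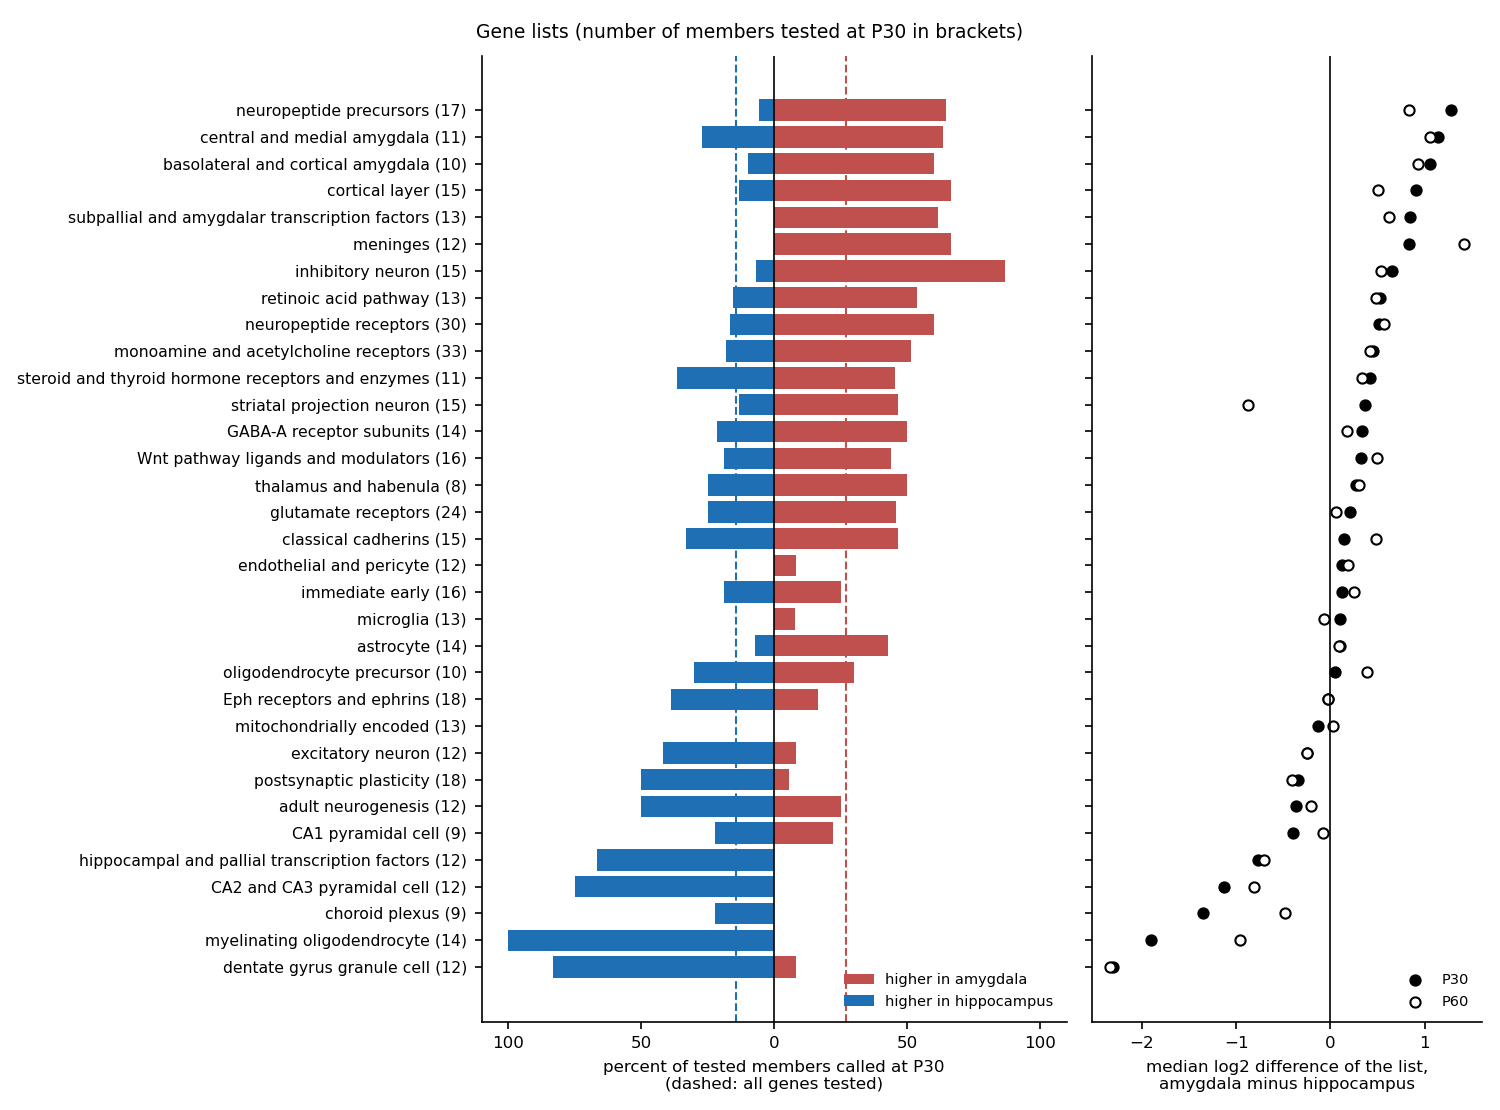
Left, percent of the tested members of each gene list called higher in the amygdala (red) or in the hippocampus (blue) at P30, with dashed lines at the percent over all genes, 27.2% and 14.2%. Right, the median log2 difference of each list at P30 (filled) and P60 (open), from the dentate list at -2.30 to neuropeptide precursors at 1.28.

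Inhibitory receptors differed in their subunits. Of 14 GABA-A receptor subunit genes, 7 were higher in the amygdala and 3 in the hippocampus, with a median of 0.34. GABA-A receptors are chloride channels built of several subunits, and their make-up sets where they sit and how they respond to drugs. Gabra3, which encodes alpha 3, had 110.3, 158 and 183 in the amygdala against 11.7, 18.9 and 41.5 in the hippocampus (2.88 ± 0.21, limma adjusted p = 4.9e-08). Gabrq, which encodes theta, had 4.65, 13.8 and 23.2 against 0, 0.210 and 1.07 (3.46 ± 0.25). Both lie on chromosome X, Gabra3 at chrX:72432681-72656848 and Gabrq at chrX:72825178-72842602 (GRCm38, GENCODE M21, not the mm9 build of the files), with Gabre, which encodes epsilon, at chrX:72255999-72274803. Gabre was not called (1.05 ± 0.44, limma adjusted p = 0.069), but was without WT amygdala 3 (1.27) or WT amygdala 4 (1.23) and with the frontal cortex libraries in the fit (1.05). A pseudocount of 0.1 also made the Gabre call. Gabra5, which encodes alpha 5, the subunit of extrasynaptic hippocampal receptors, had 38.4, 83.2 and 105 against 189, 327 and 391 (-1.99 ± 0.16, limma adjusted p = 8e-08). Gabrg3, beside it on chromosome 7, was higher in the amygdala (0.39 ± 0.12), with overlapping libraries, and was not called under voom (0.30) or in WT mice alone (0.22). The chromosome 5 genes Gabrg1 (1.28 ± 0.18) and Gabra4 (-0.36 ± 0.08) were called in opposite directions, and Gabra2 had 125 to 301 in the amygdala and 140.4 to 227 in the hippocampus (limma adjusted p = 0.096). Gabra2 was called higher in the amygdala without WT amygdala 3 (0.47), without WT number 3 in both regions (0.41), and with the replicate block or the frontal cortex libraries in the fit (0.34 in both). Glra3, a glycine receptor subunit gene, was higher in the amygdala with 32.5, 58.0 and 80.1 against 1.49, 3.76 and 5.36 (3.61 ± 0.19).

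Glutamate receptors divided as well, 11 of 24 higher in the amygdala and 6 in the hippocampus (median 0.20). On the amygdala side Grm8, a presynaptic metabotropic receptor, and Grin3a, an NMDA receptor subunit that lowers calcium flow, differed by 2.01 ± 0.29 and 1.75 ± 0.22, with overlapping libraries. Grik1, a kainate receptor subunit, and Gria4, an AMPA receptor subunit, differed by 1.52 ± 0.12 and 1.21 ± 0.10 without overlap between regions. On the hippocampal side Grin2a, the GluN2A gene, had 439, 573 and 664 in the amygdala against 696, 1564 and 1713 in the hippocampus, with WT hippocampus 3 the lowest of the hippocampus libraries. Gria1, the GluA1 gene, was higher in the hippocampus by -0.78 ± 0.15 and Grm2, a group II metabotropic receptor, by -1.30 ± 0.23. Of 18 postsynaptic plasticity genes 9 were higher in the hippocampus and 1 in the amygdala (median -0.34). Prkca, protein kinase C alpha, had 218, 255 and 317 against 471, 621 and 779, and Ppp3ca, the calcineurin catalytic subunit, 662, 790.3 and 936 against 1167, 1873 and 2062. Camk2a, the calcium and calmodulin-dependent kinase gene, had overlapping values of 2447, 3081 and 3548 against 2984, 4726 and 4924 (-0.53 ± 0.10, limma adjusted p = 0.00018). The 1 gene higher in the amygdala was Shank2, a postsynaptic scaffold (0.34 ± 0.07). WT hippocampus 3 had the lowest sum of the plasticity list, 10638 against 16084 to 17476 in the other hippocampus libraries.

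Of the vesicular glutamate transporter genes, Slc17a6 was higher in the amygdala and Slc17a8 in the hippocampus. Slc17a7, the VGLUT1 gene of cortical-type excitatory neurons, had 455, 556 and 662 in the amygdala and 338, 544 and 631 in the hippocampus (0.08 ± 0.10, limma adjusted p = 0.57). Slc17a6, the VGLUT2 gene, had 26.5, 38.6 and 80.1 against 6.09, 9.20 and 36.0 (1.81 ± 0.35). In WT mice alone Slc17a6 was not called (1.54, limma adjusted p = 0.077). It is also on a thalamus and habenula list, of which 4 of 8 tested genes were higher in the amygdala and 2 in the hippocampus. WT hippocampus 2 had that list's highest hippocampal sum, 491 against 256 to 388 in the others. Without it the Slc17a6 log2 difference was 2.02. The part of thalamic tissue in this difference was not tested. Slc17a8, the VGLUT3 gene, which some interneurons also use, had 0.480, 1.11 and 2.53 against 4.49, 6.36 and 8.21 (-1.68 ± 0.16). Of 15 inhibitory neuron genes 13 were higher in the amygdala and 1 in the hippocampus (median 0.65). Reln, which encodes the extracellular protein reelin, had 219, 275 and 344 against 84.9, 106 and 112 (1.37 ± 0.08, limma adjusted p = 1e-10). Gad2 and Gad1, the GABA-synthesising enzymes, differed by only 0.58 ± 0.10 and 0.24 ± 0.07, with overlapping libraries; neither was called in WT mice alone, nor Gad1 under voom (0.15). Pvalb, the parvalbumin gene of fast-spiking interneurons, was the exception, with 2.77, 4.53 and 5.85 against 6.41, 10.6 and 14.2 (-1.05 ± 0.15).

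Monoamine and acetylcholine receptors were higher in the amygdala for 17 of 33 genes and in the hippocampus for 6 (median 0.46). The D1-type dopamine receptors were opposite: Drd1 had 7.71, 13.1 and 33.9 in the amygdala against 1.30, 3.71 and 6.63 in the hippocampus, and Drd5 0, 0.510 and 1.5 against 2.99, 7.07 and 9.18. Neither overlapped (1.76 ± 0.30 and -2.26 ± 0.21). WT amygdala 3, with the highest striatal sum, also had the highest Drd1 value, and without WT number 3 in both regions the Drd1 log2 difference was 1.70. Ppp1r1b, the DARPP-32 gene of striatal neurons, was not called (0.92 ± 0.37, limma adjusted p = 0.058); it was called without KO amygdala 1 (1.05), KO amygdala 4 (1.03), WT amygdala 2 (1.05) or WT hippocampus 3 (1.05), without WT number 3 in both regions (0.82), and with the replicate block or the frontal cortex libraries in the fit (0.92 in both). Lrrc10b, on the striatal list too, was higher in the hippocampus (-3.06 ± 0.26). Of 15 striatal genes 7 were higher in the amygdala and 2 in the hippocampus (median 0.36), the other being Scn4b, a sodium channel subunit, at -1.45 ± 0.55, which without any single library but KO amygdala 2 or WT amygdala 3 was no longer called (-1.28 to -1.52). The part of striatal tissue in the Drd1 difference was not tested. Htr2c, the serotonin 2C receptor, had 110.4, 144 and 169 in the amygdala against 7.20, 12.5 and 298 in the hippocampus (2.61 ± 0.64, limma adjusted p = 0.0048). The 298 was WT hippocampus 3, the library with the high choroid plexus sum, and the other 7 did not exceed 55.8; without it the log2 difference was 3.13. Hrh1, a histamine receptor, differed by 1.98 ± 0.12 and Chrm3, a muscarinic receptor, by -1.21 ± 0.13, both without overlap. Chrm4, another muscarinic receptor, and Hrh3 were higher in the amygdala by 1.51 ± 0.14 and 1.69 ± 0.19, and Adra1d, an alpha-1 adrenergic receptor, and Htr4 in the hippocampus by -2.11 ± 0.22 and -1.08 ± 0.15. Htr1a, the serotonin 1A receptor, had 9.29 to 30.9 against 16 to 29.0 (limma adjusted p = 0.13).

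Steroid signalling separated the corticosteroid receptors. Nr3c2, the high-affinity mineralocorticoid receptor, had 63.3, 89.0 and 122 in the amygdala against 225, 359 and 377 in the hippocampus (-1.93 ± 0.12, limma adjusted p = 2e-09). Nr3c1, the glucocorticoid receptor, had 87.2, 104 and 118 against 96.7, 103 and 140.0 (-0.07 ± 0.08, limma adjusted p = 0.51). Hsd11b1, the enzyme that regenerates active corticosteroid, was also higher in the hippocampus at 5.63, 6.63 and 10.2 against 16.2, 20.7 and 23.1 (-1.45 ± 0.11). Fkbp5, a chaperone that dampens glucocorticoid receptor signalling, and Srd5a1, a steroid reductase, differed slightly in the same direction (-0.31 ± 0.07 and -0.44 ± 0.14). Pgr, the progesterone receptor, was higher in the amygdala (0.72 ± 0.10), as were Esr1 and Thrb, a thyroid hormone receptor (0.97 ± 0.15). Over the list of 11 steroid and thyroid genes, 5 were higher in the amygdala and 4 in the hippocampus (median 0.42).

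Adhesion and guidance genes formed opposed sets. Of 15 cadherins 7 were higher in the amygdala and 5 in the hippocampus (median 0.14). Cdh4 had 59.4, 104 and 133 in the amygdala against 11.4, 13.8 and 16.8 in the hippocampus, and Cdh22 24.1, 41.1 and 44.2 against 1.71, 5.07 and 7.85. Cdh7 differed by 2.55 ± 0.27, and none of the 3 overlapped. Cdh8, Cdh11 and Cdh24 went the other way by -1.30 ± 0.15, -1.17 ± 0.07 and -1.11 ± 0.14, also without overlap. Cdh13 and Cdh1 were higher in the amygdala by 1.81 ± 0.25 and 1.68 ± 0.18. The smaller hippocampal differences of Cdh12 (-0.61 ± 0.21) and Cdh9 (-0.56 ± 0.19) were lost without any of 6 and any of 4 single libraries, at -0.51 to -0.58 and -0.49 to -0.52. Of 18 Eph receptors and ephrins 7 were higher in the hippocampus and 3 in the amygdala (median -0.02), and in this family the 7 were receptors and the 3 ligands. Epha4 had 101, 175 and 219.6 against 483, 728 and 806, Epha7 57.7, 95.4 and 151 against 254, 459 and 539, and Ephb2 differed by -1.68 ± 0.16. The ligand genes Efnb2 and Efna5 had 84.7, 103 and 133 against 13.6, 18.6 and 36.0, and 15.4, 20.9 and 34.4 against 3.57, 4.49 and 13.9. The third, Efnb1, differed by 1.06 ± 0.11.

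Dividing cells and immature neurons gave a further contrast. Of 12 adult neurogenesis genes 6 were higher in the hippocampus and 3 in the amygdala (median -0.37). Igfbpl1, a marker of neuroblasts, had 0.600, 1.14 and 1.77 against 6.69, 8.82 and 14.2 in the hippocampus. Eomes, the transcription factor of intermediate progenitors, had 0.140, 0.350 and 1.20 against 1.78, 3.23 and 12.2, and Mki67, a proliferation gene, 6.89, 12.3 and 17.2 against 23.7, 29.9 and 39.8. All 3 were separate. Dcx, the doublecortin gene of immature neurons, was higher in the amygdala instead, at 87.9, 99.9 and 119 against 58.3, 68.7 and 87.3 (0.51 ± 0.08, limma adjusted p = 4.6e-05). Tubb3, a neuronal tubulin, was higher there too (0.48 ± 0.10), and Calb2, the calretinin gene, which interneurons also use, by 1.18 ± 0.42, a call lost without any of 10 single libraries (1.00 to 1.18). Immediate early genes, which neurons switch on after activity, had 4 of 16 members higher in the amygdala and 3 in the hippocampus (median 0.12), shares near the 27.2% and 14.2% over all genes. Fos had 2.93, 11.0 and 18.6 against 2.37, 5.58 and 10.6 (limma adjusted p = 0.13) and was called with the replicate number as a block (0.67) and without WT amygdala 2 (0.88). Egr2 was higher in the amygdala (1.42 ± 0.28), and Arc (-1.20 ± 0.34), Nr4a3 (-1.03 ± 0.16) and Bdnf (-0.94 ± 0.15) in the hippocampus.

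Cortical layer genes and patterning signals were also compared. Of 15 layer markers 10 were higher in the amygdala and 2 in the hippocampus (median 0.90), among them Ctgf, a marker of the deepest layer (1.66 ± 0.23), and Cux2, an upper-layer factor (1.18 ± 0.19). Of 13 retinoic acid pathway genes 7 were higher in the amygdala and 2 in the hippocampus (median 0.52), with summed values that overlapped (117 to 176 and 135 to 173). Rxrg, a retinoid receptor, had 7.07, 9.80 and 14.8 in the amygdala against 0.180, 0.835 and 2.53 in the hippocampus (2.64 ± 0.20, limma adjusted p = 6.3e-09), whereas Rara, another, was higher in the hippocampus (-0.73 ± 0.12). Aldh1a1, a retinoic acid synthesising enzyme, was also higher in the hippocampus (-1.59 ± 0.26). Of 16 Wnt ligands and modulators 7 were higher in the amygdala and 3 in the hippocampus (median 0.32), while their summed values were lower in every amygdala library, at 202 to 248 against 268 to 347. Wnt4 and the Wnt enhancer Rspo3 differed by 1.4 ± 0.22 and 1.07 ± 0.17, and Dkk3, a Dickkopf family member, by -1.73 ± 0.15.

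Among the genes chosen by the size of their difference, which also had to be called at P60, several belong to none of the lists above. On the amygdala side Otof, a calcium sensor of synaptic vesicle fusion, had 59.7, 83.0 and 107 against 1.10, 1.96 and 3.85 (4.76 ± 0.16, limma adjusted p = 2.2e-12). Igfn1, a muscle-type immunoglobulin and fibronectin domain protein, had 7.71, 27.5 and 109.8 against 0, 0.0750 and 5.13. Atp2b4, a plasma membrane calcium pump, had 421, 963 and 1118 against 55.5, 72.7 and 284, and Cobl, an actin nucleator, 119, 131 and 182 against 8.77, 11.6 and 18.6. Arhgap6, Rasgef1c and Prkg2, a GTPase activator, a Ras exchange factor and a cyclic GMP-dependent kinase, differed by 3.42, 3.33 and 3.23. Rprm, a cell cycle arrest gene and deep cortical layer marker, differed by 2.87 ± 0.15. On the hippocampal side Hpca, the calcium sensor hippocalcin, had 109.7, 149 and 166 against 726, 1117 and 1428 (-2.92 ± 0.11, limma adjusted p = 2.7e-12), Olfml2b 1.75, 3.60 and 6.13 against 40.2, 51.8 and 62.3, and Cabp7, a calcium-binding protein, 8.63, 13.1 and 26.8 against 77.0, 120.0 and 148. Cd109, a surface glycoprotein, differed by -2.91.

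Glial and other non-neuronal lists were followed beside these. All 14 myelin genes were higher in the hippocampus (median -1.90), with summed values of 1513 to 7207 in the amygdala and 5183 to 20194 in the hippocampus, so the sums overlapped. Mobp, a basic protein of compact myelin, had 142, 234 and 882 against 660.3, 1125 and 2418. Mbp, myelin basic protein, differed by -1.80 ± 0.29. The choroid plexus list had 2 of 9 members called, both higher in the hippocampus: Kl, the klotho gene (-1.91 ± 0.61), and Ttr, the transthyretin gene (-3.45 ± 1.31, limma adjusted p = 0.049). The Ttr call was lost under 21 of 26 alternatives, and without WT amygdala 1, whose choroid plexus sum was 1411 against 24.4 to 57.3 in the other amygdala libraries, the log2 difference was -4.28. Of 14 astrocyte genes 6 were higher in the amygdala, led by Agt, the angiotensinogen gene (1.09 ± 0.26), and only Gfap, a filament protein gene, in the hippocampus (-0.91 ± 0.10). Of 13 microglial, 12 endothelial and 2 blood genes tested, 1 each was called, Cx3cr1 (0.25 ± 0.07), Vtn (0.58 ± 0.13) and Alas2 (0.47 ± 0.10), all higher in the amygdala. Cx3cr1 was not called under voom (0.15) or in KO mice alone (0.11). None of 13 mitochondrially encoded genes was called. Slc6a13, a GABA transporter of the meninges, had 8.94, 13.1 and 19.3 against 1.61, 4.25 and 6.63. The part of myelin, choroid plexus and meninges content in the neuronal differences was not tested. Without WT number 3 in both regions, the myelin list still had 14 of 14 higher in the hippocampus, the dentate list 10 of 12 and the peptide list 13 of 17 higher in the amygdala.

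The test of whether the region difference depended on genotype made no call with all libraries. The region by genotype interaction was called in 0 of 18406 genes by limma (0%), with 853 at an unadjusted p under 0.05 and a lowest adjusted p of 0.76. Fitted on 8 libraries each, WT mice alone gave 3102 calls of the region difference and KO mice alone 5881. Without WT number 3 in both regions, a setting chosen after seeing the data, 3 genes were called in the interaction (adjusted p = 0.034 for each by limma). Elavl4, a neuronal RNA-binding protein gene, had an amygdala minus hippocampus difference 0.75 ± 0.12 above that of WT in KO, Plpp6, a lipid phosphatase gene, 0.73 ± 0.12, and Cdc42se2, a CDC42 effector gene, 0.75 ± 0.12. Elavl4 was higher in the amygdala in both genotypes. Plpp6 was lower there in WT (34.06 to 39.97 against 47.67 to 54.53) and higher in KO (43.19 to 46.82 against 36.39 to 41.14). Cdc42se2 also changed direction (76.85 to 89.15 against 90.52 to 97.48 in WT, 76.74 to 97.9 against 53.8 to 62.34 in KO). With all libraries the adjusted p-values of the 3 genes were 0.97, 0.97 and 0.76.

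At P60, in other mice, 3336 of 18701 genes were higher in the amygdala (17.8%) and 1623 in the hippocampus (8.68%), and the libraries did not overlap for 9.87% and 4.37% of genes in these directions. With voom the P60 split was 2358 and 2205, with the median of all genes at -0.001 in place of 0.07. Of 18091 genes tested at both ages, 2742 were called higher in the amygdala at both, which is 55.2% of the P30 and 84.1% of the P60 calls, and 1332 in the hippocampus, 52.1% and 83.4%. Opposite calls were seen in 2 genes, named here after their values were seen: Diaph2, a formin, at 0.25 and then -0.20, and Lect1, a chondromodulin gene, at -0.61 and then 0.64. Across genes the P30 and P60 log2 differences correlated at r = 0.90, a description across genes that are not independent. Genes named for the size of their difference, among them Dsp, Prox1, Otof and Trhr, had to be called at P60 in the P30 direction. Their P60 calls are thus no check. Dsp (-6.12), Prox1 (-3.17), Otof (3.42), Trhr (3.77), Gabra3 (2.63), Gabra5 (-1.49) and Nr3c2 (-1.55) were called at P60 in the P30 direction. Penk (0.19), Tac1 (0.61), Drd1 (0.10), Meis2 (1.26) and Tacr1 (1.72) were not. In hippocampus number 1 of both genotypes Penk was 291 to 437, against 22.8 to 29.6 in the other 3 hippocampus libraries. Without both libraries, a setting chosen after seeing the data, these 5 log2 differences were 1.72, 1.90, 1.55, 2.63 and 2.77, all called by limma. The striatal list then had 6 of 15 higher in the amygdala and 3 in the hippocampus, in place of 0 and 4 of 16, while the myelin list had 1 of 14 called in place of 12. The libraries left out were those with the high striatal sums, so the shift of the striatal list, which holds Drd1, is no separate check. Of the 162 genes described, 120 were called at P60. This count is no check, since it includes up to 12 genes in each direction that were chosen among those called at P60. Of the 120, 8 were not called without the 2 libraries: Mobp (-1.36 and then -1.14), Mbp (-1.03 and -0.87), Pdyn (-1.69 and -1.36), Fos (1.36 and 1.63), Nr4a3 (-0.56 and -0.63), Ttr (-2.60 and -2.80), Shank2 (0.27 and 0.24) and Alas2 (0.38 in both). Called only without the 2 libraries were 19, the 5 above and 14 others. Higher in the amygdala among these were Rxrg (1.56 and then 3.15), Oprk1 (1.41 and 2.60), Foxp2 (0.85 and 2.35), Nts (1.41 and 2.17), Hrh3 (1.34 and 2.41), Pbx3 (1.36 and 2.42), Chrm4 (0.88 and 1.74), Dcn (2.44 and 3.56), Egr2 (1.25 and 1.81) and Calb2 (1.23 and 1.80). Higher in the hippocampus were Prkcd (-1.46 and then -2.41), Chrm3 (-0.66 and -1.02), Bdnf (-0.65 and -1.06) and Rara (-0.26 and -0.41).

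**Figure D4:**
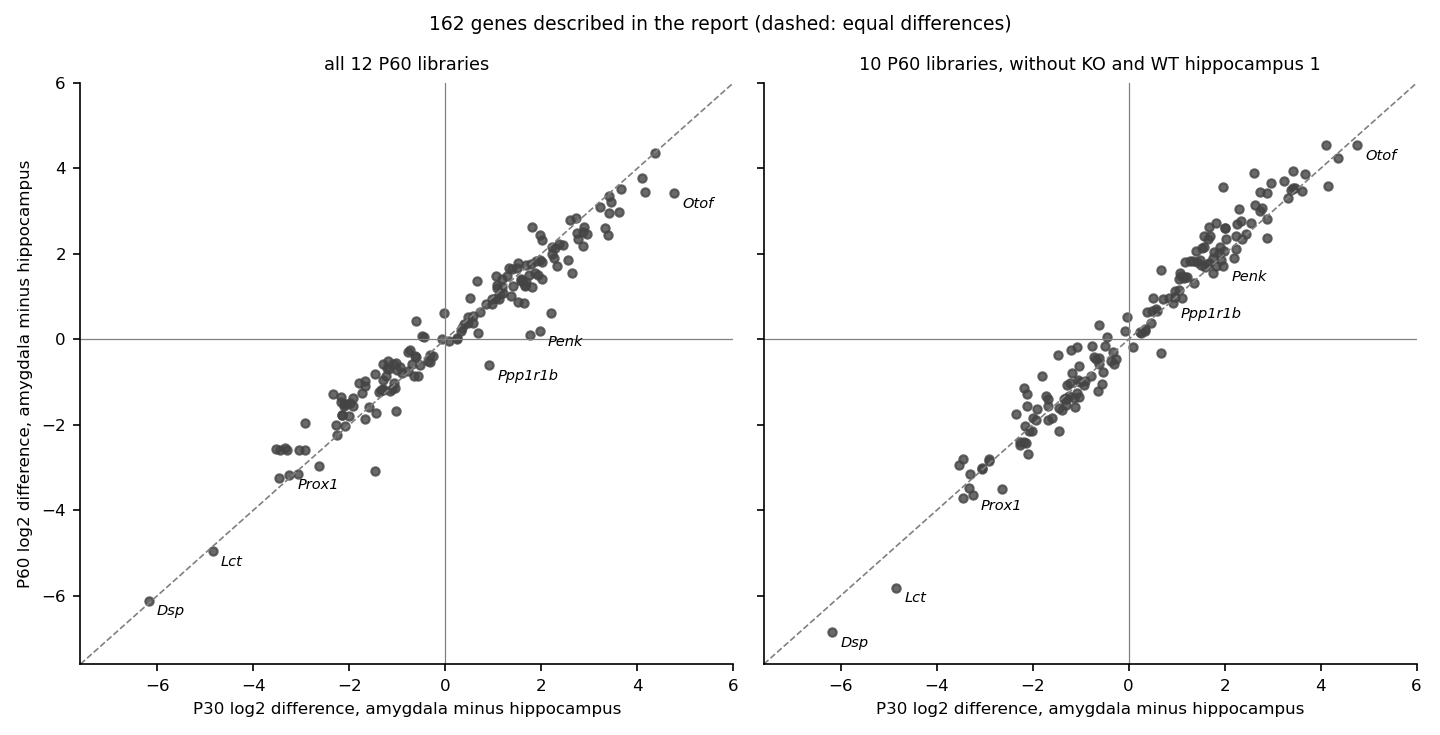
Log2 differences at P60 against those at P30 for 162 genes described here, with all 12 P60 libraries (left) and without hippocampus number 1 of KO and WT (right, a setting chosen after seeing the data). Penk and Ppp1r1b lie far below the diagonal on the left and near it on the right.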

How the data were processed

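The authors deposited normalised gene values in a table for each age: CPM that allow for an effective library size, with a scaling that is not stated. The libraries were poly-A selected, stranded and paired-end, per the labels' protocols. The submitters' processing notes name limma, DESeq, edgeR and mm9 with no role, and for aligner, counter and annotation the entry is: not given in the sources used here. Each value was a whole multiple of 1 read's worth (100.0% within 0.1 read), which gave the depths. Because the values are not counts, the planned count test was replaced by limma-trend (limma 3.58.1, R 4.3.3, robust) on log2(value + 1) with genotype as a covariate, which understates changes of low genes. A gene needed 10 reads at the median depth in 4 libraries (2 at P60) and 15 in all. The script was tested on simulated data. Positions follow GENCODE M21, where 48058 of 48526 gene IDs were found.

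The members and the 35 gene lists were chosen with earlier results of these data known. Genes were named as the 12 largest differences a direction that did not overlap and were called at P60, with a mean of at least 5, plus up to 4 called members a list and direction, up to 2 not called, and set genes such as Mir146 and Nr3c1. Outside this rule, after their values were seen, stand C1ql2, Fibcd1, Penk, Oprk1, Gabrg3, Mbp, Cckbr, Gabre, Oprm1, Crh, Sstr1, Chrm4, Lhx6, Cdh1, Ntsr2, Cux2 and Cdh9. Alternatives were another pseudocount, filter, scaling (voom) and set of libraries, the replicate block, and each library left out. A few genes are not reported here.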

Additional observations from a re-analysis of the deposited data

Results flagged for a closer look

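Of 70 sums of gene lists over the 8 libraries of a region at P30, 16 had a library whose gap to the nearest other exceeded Dixon's critical value of 0.526 of the whole range. Chance flags about 1 in 20 such groups. The sums share libraries, and 8 of the 16 belonged to WT hippocampus 3, 7 to WT amygdala 3 and 1 to WT amygdala 1.

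In WT hippocampus 3 the sums of genes of the choroid plexus (6166.2, against 54.68 to 1293.9 in the other 7 hippocampus libraries), meninges (751.72, against 129.97 to 263.11), hypothalamus (19.43, against 2.88 to 7.26) and subpallial transcription factors (504.64, against 171.6 to 225.33) were the highest. Its sums of excitatory neuron genes (5680.2, against 8812.2 to 9806), glutamate receptors (5688.1, against 8834.5 to 9719.1), GABA-A receptor subunits (1820.4, against 2575.7 to 2951.4) and postsynaptic plasticity genes (10638, against 16084 to 17476) were the lowest.

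WT amygdala 3 was the highest amygdala library in myelin (7206.7, against 1513.4 to 2790.8), astrocyte (11467, against 7241.9 to 8839.9), endothelial and pericyte (883.86, against 494.66 to 599.9) and blood genes (33.04, against 14.91 to 22.81). It was the lowest in glutamate receptors (5294.3, against 6947.3 to 8076.9), cadherins (796.94, against 942.79 to 1046.4) and neuropeptide receptors (478.33, against 587.31 to 666.1). WT amygdala 1 had a choroid plexus sum of 1410.8, against 24.38 to 57.33 in the others. Why these libraries stood apart was not tested.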

How the results depend on the processing

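Of the 152 called genes described, 112 kept direction and call under each of the 26 alternatives whose filter they passed. The other 40 lost the call under at least 1, most often in WT mice alone. There 34 lost it (Foxp2, Slc17a6, Sst, Nts, Pdyn, Htr2c, Gabrg3, Gabra4, Gria1, Gad1, Gad2, Camk2a, Ttr, Nov, Dcn, Npy2r, Kl, Agt, Arc, Bdnf, Egr2, Lhx6, Sstr4, Npy5r, Ntsr2, Ezr, Pappa, Calb2, Tubb3, Shank2, Scn4b, Vtn, Cdh12 and Cdh9) and Fibcd1 gained one. In KO mice alone 9 lost it (Plk5, Foxp2, Cx3cr1, Arc, Mc4r, Sstr4, Scn4b, Alas2 and Srd5a1), and under voom 6 (Trh, Plk5, Gabrg3, Gad1, Ttr and Cx3cr1). Signs changed in 3 genes that were not called: Wfs1 (-0.03; 0.013 in KO mice alone and -0.22 to 0.090 with a library left out), Slc17a7 (0.08; -0.00858 under voom and -0.031 without WT number 3) and Nr3c1 (-0.07; 0.10 in KO mice alone). The cause was not tested. Counts higher in the amygdala and in the hippocampus were 2040 and 1062 in WT mice alone at P30, 1259 and 641 in WT mice alone at P60, and 818 and 354 in KO mice alone at P60, with fewer libraries in each. With 1 library left out they were 4549 to 5131 and 2402 to 2768 at P30 and 2336 to 3401 and 1067 to 1686 at P60, where the lowest was without KO hippocampus 2. Without WT number 3 in both regions the interaction had 3 calls, and 0 under the other settings run (672 to 1316 genes at an unadjusted p under 0.05 by limma with a library left out). With the replicate block the counts were 4909 and 2620 at P30 and 2998 and 1502 at P60; at P30 Calb2, Scn4b, Cdh12 and Ttr lost their calls and Fos, Gabra2 and Ppp1r1b gained one. Deviations of same-numbered libraries correlated at -0.10 to 0.19 at P30 (median 0.056), and those of differently numbered libraries at -0.18 to 0.23 (median -0.025). The labels do not say whether a shared number means a shared animal, and these overlapping ranges cannot decide it. The planned edgeR and DESeq2 fits were not run; voom was the fit to recovered reads. Depth of 2933026 reads in the shallowest library limits genes of low value.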

Other observations

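Several channel and matrix families outside the lists, grouped here after the data had been seen, were compared at P30 and are given as values. Over all genes tested at P30, 27.2% were higher in the amygdala and 14.2% in the hippocampus, with a median log2 difference of 0.07. At P60 the shares were 17.8% and 8.68%. Of 43 collagen genes tested at P30, 19 were higher in the amygdala and 2 in the hippocampus (median log2 difference 0.49), and at P60 23 and 1 of 42. Meninges markers were higher in the amygdala too, 8 of 12 at P30 and 10 of 12 at P60, with summed values of 265 to 586 against 130 to 752 at P30 and 179 to 554 against 82.2 to 144 at P60, and their part in the collagen differences was not tested. Col6a1, a chain of the microfibril collagen VI, had 36.5 to 83.2 in the amygdala and 1.96 to 15 in the hippocampus (3.02 ± 0.32 SE, limma adjusted p = 3e-06). All 4 neurexophilin genes, which encode secreted ligands of neurexins, were higher in the amygdala at both ages, with P30 log2 differences of 1.09 (Nxph1), 1.81 (Nxph2), 1.28 (Nxph3) and 1.20 (Nxph4). Nxph3 differed by 0.24 in WT mice alone and 2.33 in KO mice alone (interaction 2.08 ± 0.48, limma adjusted p = 0.86). Of 4 glycine receptor subunit genes 3 were higher in the amygdala at both ages, and 3 of 4 HCN pacemaker channel genes were too. Hcn4 had 11.8 to 18.8 against 1.43 to 5.33 (2.15 ± 0.16), while Hcn2 was not called (-0.24 ± 0.11, limma adjusted p = 0.097).

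Potassium channel subunits went both ways, with 29 of 76 higher in the amygdala and 21 in the hippocampus (median 0.06). Kcnt1, a sodium-activated channel, had 103 to 134 in the amygdala against 15.8 to 53.4 in the hippocampus (2.19 ± 0.17). Semaphorins and plexins, axon guidance ligands and receptors, were split too, with 9 of 29 and 11 of 29 (median 0.01). Their amygdala share lay near the 27.2% over all genes. Plxnd1, a plexin, had 137 to 245 against 20.5 to 37.6 (2.87 ± 0.14), and Sema3e, which encodes its ligand, was higher in the hippocampus with 14.9 to 62.5 against 54.9 to 142 (-2.05 ± 0.24). Receptor and ligand genes of this pair were thus higher in different regions at P30, and both were called in the same direction at P60 (2.40 and -1.48).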
